A study of Mus musculus with 2 samples.

Results

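The genes described here bear on which fuel a muscle fibre burns: the pyruvate dehydrogenase kinases Pdk1, Pdk2, Pdk3 and Pdk4, the lipoprotein lipase inhibitor Angptl4, the uncoupling proteins Ucp2 and Ucp3, and the lipid droplet proteins Plin2 and Plin5. These 9 genes were taken by their symbols in the platform annotation, which names 16593 genes on the array. They had 10 probes in all: 2 each for Ucp3 and Plin5 and 1 each for Pdk1, Pdk2, Pdk3, Pdk4, Angptl4 and Plin2. No probe carried the symbol Ucp2, which was not analysed here, so 8 genes had values, and each of the 8 was detected on at least 1 array. The members were selected on measured values, the difference of their signals between these same arrays among them, so those values are given as a description, with no test.

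The arrays compare DHT with vehicle. The DHT array held RNA of tibialis anterior muscle, a muscle of the lower leg, from C57/BL6 mice that received, at 10 days of age, a subcutaneous injection of DHT, an abbreviation taken here to mean the androgen dihydrotestosterone. The vehicle array held RNA of the same muscle of C57/BL6 mice of the same age injected with vehicle, and both were sampled 24 h after the injection. With 1 array per group there were no replicates: no difference below has an error between animals, and no p-value is given. The labels do not state the sex of the mice or whether RNA was pooled.

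Pyruvate dehydrogenase turns pyruvate from glucose into acetyl-CoA for the mitochondria. The Pdk kinases phosphorylate it and switch it off, which spares glucose, and Pdk4 is the kinase that muscle induces when fatty acids are plentiful, as in fasting. Fatty acids act on PPAR receptors, which pair with RXR receptors on DNA and are known to induce Pdk4, Angptl4, Ucp3 and the perilipin genes, while glucocorticoids and FoxO factors also induce Pdk4.

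The promoters of the 3 lower genes for which a sequence was at hand are shown because these genes were lower together. RefSeq windows of 300 bases on build GRCm38.p6, from 250 before to 50 after the start site, covered 8 members in 11 windows: Pdk1, Pdk2, Pdk3, Pdk4, Ucp2, Ucp3, Plin2 and Plin5. Capitals mark AGGTCA on either strand, the core motif of PPAR, RXR and related receptors. The window of Pdk4 is chr6:5496229-5496528, minus strand, that of Ucp3 chr7:100472741-100473040, plus strand, and that of the upstream start site of Plin5 chr17:56117499-56117798, minus strand.
Pdk4: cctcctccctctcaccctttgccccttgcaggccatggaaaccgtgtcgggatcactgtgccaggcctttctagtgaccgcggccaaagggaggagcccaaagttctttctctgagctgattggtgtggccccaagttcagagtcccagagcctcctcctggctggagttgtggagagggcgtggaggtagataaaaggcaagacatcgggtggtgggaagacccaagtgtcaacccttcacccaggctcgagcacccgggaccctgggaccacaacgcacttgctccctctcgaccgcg
Ucp3: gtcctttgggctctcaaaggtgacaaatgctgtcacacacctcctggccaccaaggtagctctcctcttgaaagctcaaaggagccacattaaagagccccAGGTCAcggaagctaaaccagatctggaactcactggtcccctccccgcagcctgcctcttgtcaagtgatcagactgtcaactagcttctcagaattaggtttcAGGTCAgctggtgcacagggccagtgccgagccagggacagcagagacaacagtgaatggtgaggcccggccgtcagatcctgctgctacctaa
Plin5: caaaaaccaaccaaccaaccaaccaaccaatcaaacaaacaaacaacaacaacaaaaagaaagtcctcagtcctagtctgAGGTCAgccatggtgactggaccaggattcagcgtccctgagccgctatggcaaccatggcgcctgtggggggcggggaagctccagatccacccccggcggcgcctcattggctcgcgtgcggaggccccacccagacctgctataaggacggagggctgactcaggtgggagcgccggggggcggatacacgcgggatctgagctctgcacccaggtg

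AGGTCA occurred 2 times in the Ucp3 window and 1 time in the Plin5 window, and the Pdk4 window did not contain it. It was found in 4 of the 11 member windows, those of Ucp3, Plin2 and both start sites of Plin5, and in 16.3% of all 32851 promoter windows of this length. The PPAR-type direct repeat AGGTCANAGGTCA, which contains AGGTCA, the steroid receptor palindrome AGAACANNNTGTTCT and the forkhead core TGTTTAC were searched on both strands too. Each was in 0 of the 11 windows, against 0.0396%, 0.00913% and 3.65% of all windows in that order. A match is a string of letters and not a binding site, and sites outside these windows were not searched.

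Signals were compared as deposited and after background correction and quantile normalization, from which the log2 differences, DHT minus vehicle, are taken. A probe with a detection p under 0.01 counted as detected. The lowest detected signals were 180 on the DHT array and 190 on the vehicle array. The log2 difference varied between probes of a single gene with a pooled SD of 0.29 over 2229 genes, and among 11395 background probes with an SD of 0.20. Both describe scatter within these 2 arrays and say nothing of the spread between animals. Muscle RNA was present on both arrays, as Ckm, the muscle creatine kinase, had signals of 66863 on the DHT array and 67343 on the vehicle array. Both lie near the top of the scale, so the share of muscle is not compared by them. Signals of different probes depend on the probe, so levels are not compared between genes. The exceptions are the rank of Pdk4 among all probes and the list of genes nearest to it. Summed signals of marker lists, given below, are of deposited values, which include background.

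**Figure D1:**
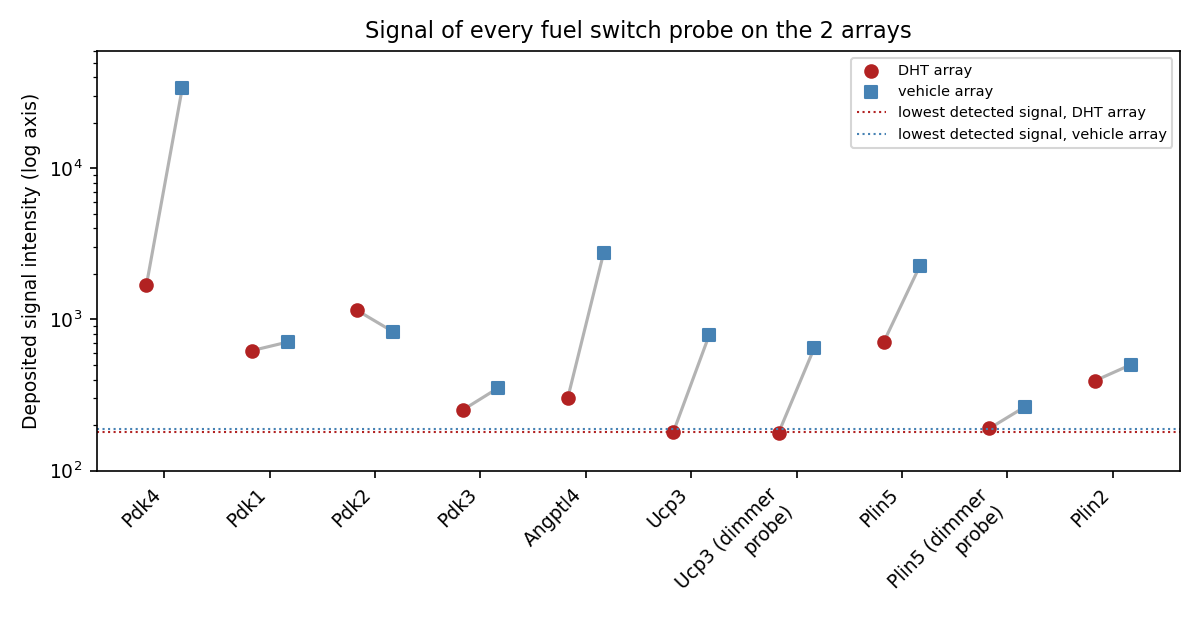
Deposited signal (log axis) of each of the 10 probes on the DHT array (circles) and the vehicle array (squares), with 1 value per array and dotted lines at the lowest detected signals. Pdk4 had 1685 on the DHT array and 33827 on the vehicle array, and both Ucp3 probes lay at the DHT array's detection line.

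Among the kinases, Pdk4 was 18.6-fold lower on the DHT array. Pdk3 was lower too, by less than 1.5-fold, while Pdk1 differed little and Pdk2 was higher. Pdk4 (probe ILMN_1259322) had a signal of 1685 on the DHT array and 33827 on the vehicle array, a log2 difference of -4.22. On the vehicle array it was brighter than 99.6% of all probes, and on the DHT array brighter than 89.7%. By these values 7 of the 8815 genes kept had a more negative difference. Both signals were far above background, and without background correction the fold was 17.4.

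Pdk2, the widely expressed kinase that resting muscle also contains, was higher. Its signal was 1147 on the DHT array and 830 on the vehicle array (probe ILMN_2737658), a log2 difference of 0.84 or 1.79-fold, and 1.66-fold without background correction. Pdk1, a kinase known as a target of hypoxia signalling, had 621 on the DHT array and 708 on the vehicle array (probe ILMN_1229318). Its log2 difference of 0.10 was under the SD between probes, and its sign turned under median scaling, to -0.07. Pdk3 had 251 on the DHT array and 353 on the vehicle array (probe ILMN_2676876), a log2 difference of -0.53 or 1.44-fold lower, and 1.23-fold without background correction.

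The difference of Pdk4 therefore stood 19.9-fold away from that of Pdk1, 33.3-fold from that of Pdk2 and 12.9-fold from that of Pdk3, as ratios of the folds. Among the 8 genes, Pdk2 was the nearest past 1.5-fold and Pdk3 the nearest short of it.

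Angptl4, a secreted protein that inactivates lipoprotein lipase and so limits the uptake of fat from blood, was 12.3-fold lower. Its signal was 304 on the DHT array and 2762 on the vehicle array (probe ILMN_2759365), a log2 difference of -3.62. The DHT signal was only 1.69 times the lowest detected one, and without background correction the fold was 7.82. Its single probe allows no check against another.

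Ucp3, a carrier of the mitochondrial inner membrane found in muscle and brown fat, was low by both of its probes. The brighter probe (ILMN_2452102) had 179 on the DHT array and 783 on the vehicle array, and the other (ILMN_1233132) had 178 on the DHT array and 652 on the vehicle array. On the DHT array neither was well above background, with detection p-values of 0.0125 and 0.0138, just past the limit, so only a bound can be given. On the background-corrected scale the fold was at least 10.1 by the brighter probe and at least 8.07 by the other. The uncorrected folds were 3.88 and 3.25, smaller than those bounds. The probes differed from each other by 0.30 on the log2 scale.

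Of the droplet proteins, Plin5 was lower and Plin2 was under 1.5-fold. Plin5, which ties droplets to mitochondria in oxidative tissue and binds the lipase Pnpla2, was 2.98-fold lower by its brighter probe (ILMN_3158565), with 714 on the DHT array and 2258 on the vehicle array, a log2 difference of -1.58. Its dimmer probe (ILMN_2607215) had 190 on the DHT array and 265 on the vehicle array, a log2 difference of -0.81, or 1.26-fold without background correction. Both probes were lower on the DHT array, with a gap of 0.77 between them. Plin2, the droplet coat of most cell types, had 392 on the DHT array and 501 on the vehicle array (probe ILMN_1222246). Its log2 difference of -0.16 was under the SD between probes.

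By gene, 4 of the 8 were lower by 1.5-fold or more, namely Pdk4, Angptl4, Ucp3 and Plin5, and 1, Pdk2, was higher. Of all 8815 named genes kept, 15.8% were lower and 13.4% higher at that fold. Without background correction the counts of members were again 4 and 1, beside 8.43% and 6.74% of all genes. At 2-fold the same 4 members were lower, beside 6.28% of all genes, and 0 were higher, beside 4.61%. The median of the 8 log2 differences was -1.05, beside -0.01 for all genes kept. Since the members were chosen with these differences known, nothing is read from the counts.

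**Figure D2:**
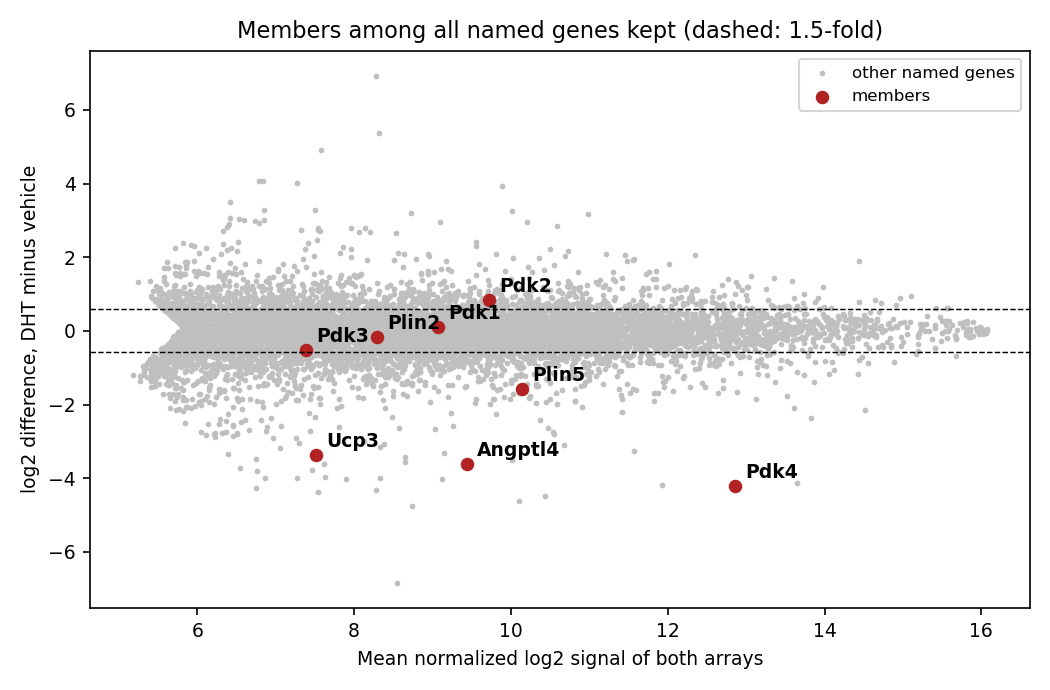
Log2 difference (DHT minus vehicle) against the mean normalized log2 signal of both arrays, for the 8 members (red, named) and all other named genes kept (grey). Pdk4 at -4.22, Angptl4 at -3.62 and Ucp3 at -3.38 lie at the lower edge of the cloud, and dim genes on the left scatter more widely.

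How far the folds depend on the processing differed from member to member. Pdk4 ran from -4.29 to -4.12 on the log2 scale over all settings tried, Pdk2 from 0.70 to 0.84, Ucp3 from -3.49 to -1.95, and Plin5 from -1.71 to -0.81. The 4 lower members and Pdk2 kept their direction in all settings that gave them a value. Ucp3 had none where a gene had to be detected on both arrays, which left 3 members lower and 1 higher, beside 13.4% and 12.0% of the genes so kept, and Pdk3 passed 1.5-fold under median scaling, at -0.68, which made them 5, beside 20.6% of all genes in that setting.

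**Figure D3:**
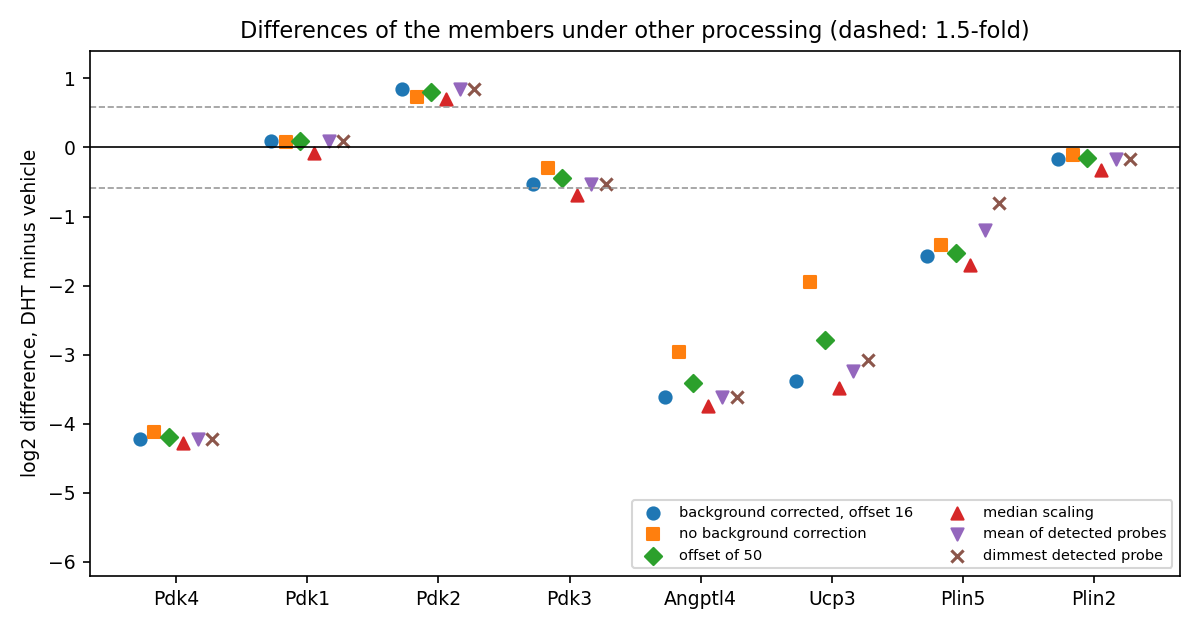
Log2 difference (DHT minus vehicle) of each member under 6 ways of processing, each marker standing for 1 way and dashed lines for 1.5-fold. Pdk4 stays between -4.29 and -4.12, while Ucp3 moves to -1.95 without background correction and Plin5 to -0.81 by its dimmer probe.

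Likeness between genes was taken here as similar signals on each of the 2 arrays. It therefore rests on the brightness of the probes as well as on the difference between the arrays. Of the other 7970 genes detected on both arrays, the 5 nearest to Pdk4 in Euclidean distance over both normalized log2 signals were Myh8, the perinatal myosin heavy chain, the histone gene H2ac24, Chac1, which breaks down glutathione, Txnip, an arrestin that restrains glucose uptake, and the collagen Col4a2. Their distances ran from 1.11 to 1.82. Myh8 had 2919 on the DHT array and 54364 on the vehicle array, near the top of the scale, and H2ac24, one of a family of near-identical genes, had 950 on the DHT array and 17497 on the vehicle array. These were 17.6-fold and 18.1-fold lower, the others between 3.17-fold and 3.59-fold.

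Of 7 measured genes of the enzyme that the kinases act on, the pyruvate dehydrogenase complex, and its phosphatases, 0 were lower and 1 was higher at 1.5-fold, with a median of 0.13. Beside 15.8% and 13.4% of all genes, the share higher is near the background. Pdp1, a phosphatase that undoes the kinases' work, was the higher one, with 2517 on the DHT array and 1968 on the vehicle array, a log2 difference of 0.65, or 0.53 and so short of 1.5-fold under median scaling. The catalytic subunit genes Pdha1 (0.35) and Pdhb (0.25) and the acyltransferase Dlat (0.13) were under 1.5-fold.

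The surroundings of Angptl4 differed in both directions. Gpihbp1, which holds lipoprotein lipase on the capillary wall, was 3.24-fold lower, with 891 on the DHT array and 3121 on the vehicle array, and Fabp3, the fatty acid binding protein of muscle, 1.83-fold lower. Angptl8, a relative of Angptl4 that is known to be induced by feeding and also restrains the lipase, was not detected with vehicle. Its detection p on the vehicle array was 0.768. Its signals were 385 on the DHT array and 137 on the vehicle array, at least 5.27-fold higher on the background-corrected scale and 3.09-fold uncorrected. Slc27a1, a fatty acid transporter, was 2.18-fold higher. The lipase itself, Lpl, had 23020 on the DHT array and 28795 on the vehicle array, a log2 difference of -0.15. The fatty acid receptor Cd36 differed by -0.45, or -0.16 without background correction. It was dim, with 181 on the DHT array, at the lowest detected signals, and 220 on the vehicle array.

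Over the whole list of lipase and uptake genes, 3 of 10 measured were lower and 2 higher, beside 15.8% and 13.4% of all genes, with a median of -0.06. One of the lower genes, Slc27a4, was not well above background with DHT and had a bound of only 1.16-fold (1.20-fold uncorrected), so 2 were lower at their bounds or without background correction. Of 3 measured relatives of Angptl4, Angptl8 and Angptl7 (0.92) were higher and Angptl1 (-0.03) was not past 1.5-fold.

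Markers of blood vessels were lower beside Gpihbp1, an endothelial gene. All 6 endothelial markers measured were lower by 1.5-fold or more, beside 15.8% of all genes, their median being -1.23. Their summed signal was 5770 on the DHT array and 14080 on the vehicle array, while Kdr was detected on neither. Neutrophil markers were lower as well, 6 of 7, beside the same 15.8%, with summed signals of 3336 on the DHT array and 10601 on the vehicle array. Mpo and Ngp were not detected on the DHT array, so their folds are bounds, at least 3.70 and 3.66. In such bulk samples fewer cells of a type and less RNA per cell cannot be told apart, and the part of these cells in the values of Angptl4 and Gpihbp1 was not tested.

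Carriers related to Ucp3 lay within 1.5-fold where they were measured. Ucp1, the uncoupling protein of brown fat, had 263 on the DHT array and 353 on the vehicle array (-0.40), and the adenine nucleotide carrier Slc25a5 differed by -0.44. The brain carriers Slc25a27 (0.28) and Slc25a14 (0.22) were measured too. Slc25a27 had 202 on the DHT array and 205 on the vehicle array, and Slc25a14 had 278 and 292 in that order. These 2 and Ucp1 were thus not far above the lowest detected signals. Of the 4 measured, 0 passed 1.5-fold in either direction, beside 15.8% of all genes lower and 13.4% higher. With 4 genes such a count is near those shares, and nothing is read from it.

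Of 16 other droplet genes measured, 6 were higher, 1 lower and 9 in neither direction at 1.5-fold. The shares higher and lower were 37.5% and 6.25%, beside 13.4% and 15.8% of all genes, and 5 were higher without background correction, beside 6.74%. The median was 0.52, or 0.41 once genes seen on a single array were set to their bounds. G0s2, an inhibitor of the lipase Pnpla2, was 7.17-fold higher, with 3929 on the DHT array and 767 on the vehicle array. Pnpla2 itself, the partner of Plin5 that starts the breakdown of stored fat, was 1.87-fold higher, with 19897 on the DHT array and 12152 on the vehicle array.

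The triglyceride-making enzyme Dgat2 (1.12) and the droplet proteins Cidec (1.19), Cidea (0.91) and Plin1 (at least 1.70-fold, 1.30-fold uncorrected) were higher too. Mgll, which completes the breakdown of fat, was the lower one, by all 3 of its probes, at -1.22, -1.20 and -0.71. Plin1, Cidec and Lipe are also adipocyte markers, and 7 of the 9 such markers measured were higher, beside 13.4% of all genes, with a median of 1.14. Without background correction 5 of the 9 were, beside 6.74%, since Car3 (1.48-fold) and Plin1 then fell short. Adig was 6.41-fold higher (3.57-fold uncorrected) and adiponectin, Adipoq, 2.67-fold. The summed signal of the 9 was 47148 on the DHT array and 42273 on the vehicle array, most of it from Lpl and Scd1, and Fabp4 and Retn were detected on neither array. The part of fat cells in the droplet values, and in that of Angptl4, which fat also makes, was not tested.

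Of 22 measured genes of fatty acid oxidation and other PPAR targets, 5 were lower, 1 higher and 16 in neither direction at 1.5-fold. The shares lower and higher were 22.7% and 4.55%, beside 15.8% and 13.4% of all genes, with a median of -0.11. The lower ones were the thioesterase Acot1 (-1.03, other probe -0.34, with a near-identical neighbour in Acot2), Mlycd (-0.89), whose enzyme removes the malonyl-CoA that blocks fatty acid entry, the isomerase Eci2 (-0.79), the carnitine carrier Slc25a20 (-0.76, other probe -0.54) and the reductase Decr1 (-0.65). Slc25a20 had 4870 on the DHT array and 9342 on the vehicle array. The peroxisomal thiolase Acaa1b was seen with DHT alone, where it was at least 2.97-fold higher, or 1.78-fold uncorrected. By its brighter probe Acot1, the lowest of the list, was 2.04-fold lower, against 18.6-fold for Pdk4, and by the other it was not past 1.5-fold. Without background correction the list again had 5 lower and 1 higher, beside 8.43% and 6.74% of all genes. Under median scaling 6 were lower, beside 20.6% of all genes, and by the dimmest detected probe 3, beside 1376 of all genes kept. Acadl was counted in neither direction by its brightest probe (-0.06), while its other probes stood at -0.81 and -0.45.

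The PPAR and RXR receptors and their cofactors could be followed only in part, and whether they acted on these genes here was not tested. Ppara and Ppard, the receptors that act in muscle, were below the detection limit on both arrays and cannot be compared. Pparg, the fat cell receptor, was 1.41-fold higher, with 627 on the DHT array and 574 on the vehicle array. The coactivators Lpin1 (2.68-fold, 1912 on the DHT array and 937 on the vehicle array) and Ppargc1a (1.60-fold) and the muscle retinoid receptor Rxrg (1.75-fold) were higher. Ppargc1a fell short of 1.5-fold without background correction (1.49-fold) and under median scaling (a log2 difference of 0.52). So 3 of the 9 measured were higher, or 2 uncorrected, and 0 lower, beside 13.4% (6.74% uncorrected) and 15.8% of all genes, with a median of 0.51. Esrra (0.54) and Rxra (0.51) were under 1.5-fold.

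Of 20 other measured genes that fasting, FoxO factors or glucocorticoids induce, 10 were higher and 2, Txnip and Irs2, lower at 1.5-fold, beside 13.4% and 15.8% of all genes. The other 8 were in neither direction: Sesn1 (-0.28), Eif4ebp1 (-0.28), Sgk1 (-0.09), Fbxo32 (0.07), Gadd45a (0.13), Trim63 (0.35), Per1 (0.41, other probe 0.63) and Cebpb (0.57). The median was 0.59, and 8 were higher and 1 lower without background correction, beside 6.74% and 8.43%. The chaperone Fkbp5 was 5.33-fold higher, with 1695 on the DHT array and 493 on the vehicle array, and glutamine synthetase, Glul, 4.88-fold higher, or 2.75-fold uncorrected. Foxo1, a factor known to bind the Pdk4 gene, was 1.98-fold higher, with 983 on the DHT array and 666 on the vehicle array.

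Klf15, a fasting-induced factor of muscle, was 2.16-fold higher (1.48-fold uncorrected) and Ddit4, an inhibitor of mTOR signalling, 1.90-fold higher. The lower ones were Txnip (3.17-fold), with 4058 on the DHT array and 14694 on the vehicle array, and the insulin receptor substrate Irs2 (1.61-fold, 1.44-fold uncorrected). Pdk4 and Angptl4, which glucocorticoids and FoxO factors also induce, were not counted in that list. These gene lists were drawn up with differences of some of their genes known, so their counts are descriptions.

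**Figure D4:**
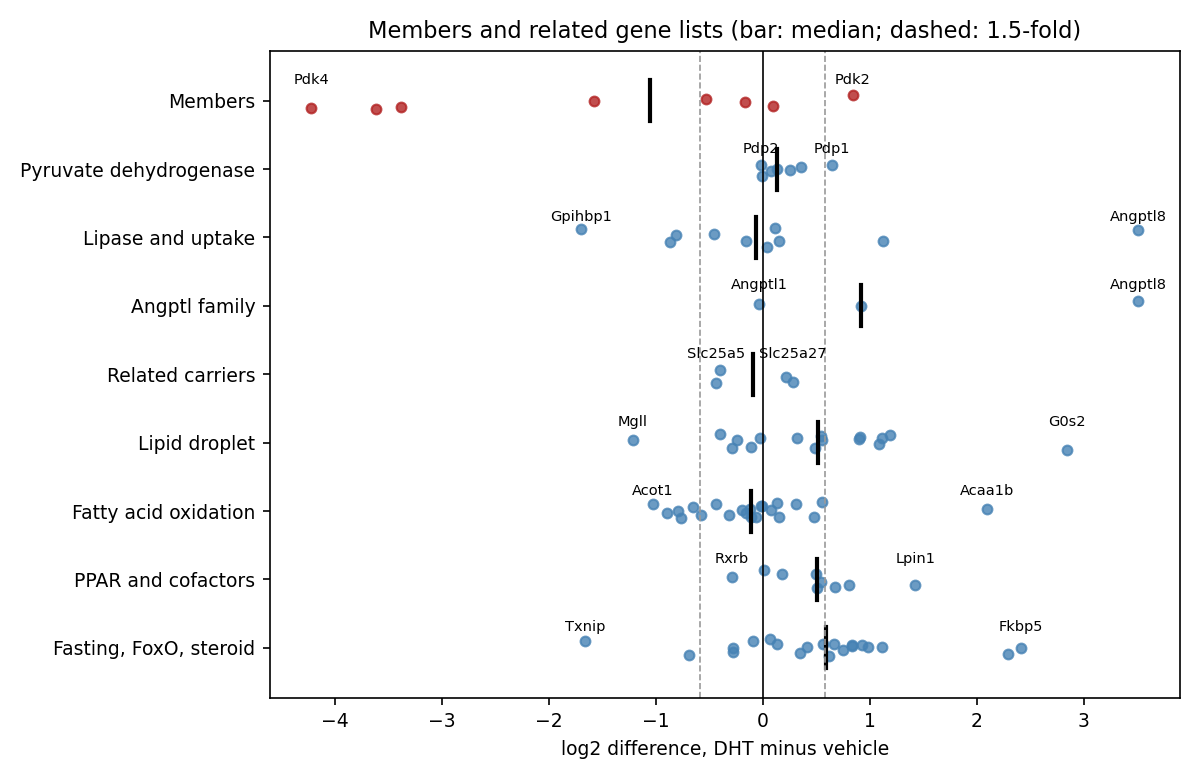
Log2 difference (DHT minus vehicle) of the 8 members (red, top row) and of the measured genes of each related list (blue), each point a gene, with a bar at the median and dashed lines at 1.5-fold. The members have a median of -1.05, while the droplet list sits at 0.52. The fasting, FoxO and glucocorticoid list, labelled Fasting, FoxO, steroid, sits at 0.59.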

How the data were processed

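Illumina bead arrays held 25697 probes each, with 1 array per group. The signal intensity deposited by the authors is linear, not normalized between arrays and not background-subtracted, as its values show. A detection p-value per probe, deposited beside it and headed as such, compares a probe with its array's background. The deposited log2 values of the series differed by at most 0.00694 from log2 signals quantile normalized here, so genes were not centred. GenomeStudio 2011.1 is named in the submitters' processing notes, without a role, and a genome build is not given in the sources used here.

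The neqc function of limma 3.58.1 in R 4.3.3 corrected for background, which it inferred from the detection p-values, added an offset of 16, quantile normalized the signals and took log2. A gene was the detected probe (p under 0.01 on at least 1 array) with the highest mean, which kept 8815 genes. Each fold is the brighter array over the dimmer. Where 1 array did not detect a gene, its fold is a bound, against the lowest detected value of that array or its own. The total signal was 2.65e+07 on the DHT array and 2.99e+07 on the vehicle array, and 11734 and 11949 probes were detected on them in that order. The number of arrays limits the precision. Symbols came from the platform annotation, which can be old, and the identifiers of all 10 member probes matched a GRCm38.p6 gene table.

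Members and lists were chosen with earlier results of these data known. All members are named with every probe, and from each list up to 6 genes with the largest differences, plus partners of a member. Irs2, the genes of the fasting list named as in neither direction, and the cell type markers named were added after their values were seen. The pipeline was tested on simulated data with known folds set only on probes well above background. That test does not cover folds near the detection limit, such as those of Ucp3. Tables and plots used Python 3.11.15, pandas 2.3.3 and matplotlib 3.10.9. There were 10 alternatives.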

Additional observations from a re-analysis of the deposited data

How the results depend on the processing

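Directions held for all members called at 1.5-fold under the 10 alternatives, where they had a value. Without background correction the log2 difference of Angptl4 was -2.97 and that of Ucp3 -1.95, and the authors' deposited log2 values gave the same figures for both. With an offset of 50 Ucp3 stood at -2.78. By the dimmest detected probe Ucp3 was at -3.08 and Plin5 at -0.81, and by the mean of probes Plin5 was at -1.19. Over all named genes, 743 were lower and 594 higher at 1.5-fold without background correction, or 743 and 595 in the deposited values, against 1394 and 1180 with it. Median scaling gave 1819 lower and 844 higher, so 68.3% of the genes past 1.5-fold were lower, against 54.2% under quantile normalization. It moved the median of all genes to -0.13, and the differences of Pdk1 (-0.07), Pdk2 (0.70) and Pdk3 (-0.68) under it are to be read against that shift.

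Of the brown adipocyte markers 1 was higher without background correction, against 3 with it, and of the macrophage markers 0 were lower, against 1. Of the lymphocyte markers 0 were lower, against 1, and 3 were higher either way. Of all genes 8.43% were lower and 6.74% higher without background correction, against 15.8% and 13.4% with it. No paired analysis was possible because each group has 1 array. Leaving out a replicate was not possible for the same reason. Dim probes limit what can be seen: the signals of Ucp3 on the DHT array were at 0.993 and 0.987 times the lowest detected signal.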

Other observations

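Among 8 skeletal muscle markers, myoglobin, Mb (0.75), and the glycogen phosphorylase Pygm (0.68) were higher at 1.5-fold. Ckm, Acta1, Tnnt3, Actn3 and Myh4 were read from probes above 40000 on at least 1 array, near the top of the scale, so nothing is read from their values or from the list's median of 0.10. Without probes that bright 4 markers were left, with a median of 0.71, and Actn3 stood at 0.97 by its dimmest probe and 0.55 by another. Fibroblast markers had 4 lower of 6, with a median of -1.09, erythroid markers 1 lower and 1 higher of 3 (Hba-a1 and the fibroblast gene Dcn were also above 40000), and lymphocyte markers 3 higher and 1 lower of 4, all 4 detected on 1 array alone. Of 5 brown adipocyte markers measured, 3 were higher, Zic1 (0.94), Cidea (0.91) and Ppargc1a (0.68). Ppargc1a is also counted among the PPAR cofactors and Cidea among the droplet genes, so these are not markers of brown fat alone. Ucp1 lay at -0.40, Cox8b (0.22) was above 40000 on both arrays, and Dio2 and Elovl3 were detected on neither array. Macrophage markers had 1 lower of 5, Mrc1 (-0.60). All these marker counts stand beside 15.8% of all genes lower and 13.4% higher, and with so few genes per list they are descriptions.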
